A study of Homo sapiens with 6 samples.

Results

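The NF-kB genes described here are 10 rows of a table of 21631 gene symbols, taken by name. They are 4 subunits of the transcription factor (NFKB1, NFKB2, RELA and RELB), 3 of its inhibitors (NFKBIA, NFKBIZ and TNFAIP3) and 3 targets (BIRC3, ICAM1 and SOD2). Bulk RNA sequencing measured their mRNA in the human melanoma cell line A-375. There were 3 libraries from cells with a guide against SEPHS2, labelled knockout, and 3 from cells with a control guide. The labels name no cytokine, no other treatment and no separate knockout lines, so a difference between the founding cells and the action of the guide cannot be told apart. The labels do not state that replicates were grown separately, so every p-value is set by a spread that may be technical.

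NF-kB proteins bind DNA as pairs. In resting cells the pairs are held in the cytoplasm by IkB proteins, of which the product of NFKBIA is the best known. Signals from tumor necrosis factor, interleukin-1 or pattern receptors activate the IKK kinase, which marks IkB for destruction and frees pairs such as the one formed by the RELA and NFKB1 products. Among the genes then switched on are NFKBIA and TNFAIP3, which close a negative feedback loop, and RELB and NFKB2, whose products form the pair of the slower, non-canonical pathway. Melanoma cells often carry constitutive NF-kB activity and secrete chemokines under its control. RNA levels do not measure the activity or the location of the proteins.

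The labels were checked on the targeted gene. SEPHS2, which encodes selenophosphate synthetase, had 5802, 7643 and 6978 reads in the libraries labelled SEPHS2 knockout and 6671, 6277 and 6269 in the control libraries. It was not lower but slightly higher under the knockout label (edgeR, log2 fold change 0.15 ± 0.04 SE, adjusted p = 0.00401), and counts per gene cannot reveal small insertions or deletions at a cut site. Every direction below therefore rests on the labels. Depth was 34606145 to 43405579 counted reads in the libraries labelled SEPHS2 knockout and 39796984 to 41757643 in the control libraries. Of 10 melanoma markers, 7 averaged at least 1 CPM (reads scaled to a common library size), among them SOX10 at 569 ± 12.98 CPM in the libraries labelled SEPHS2 knockout and 619 ± 15.6 CPM in the control libraries, while the pigment gene PMEL averaged 0.972 ± 0.156 CPM in the libraries labelled SEPHS2 knockout and 0.964 ± 0.172 CPM in the control libraries. Summed markers of T or NK cells were at 2.34 to 2.57 CPM in the libraries labelled SEPHS2 knockout and 1.83 to 2.10 CPM in the control libraries. Those of macrophages were at 8.01 to 8.22 CPM in the libraries labelled SEPHS2 knockout and 4.50 to 5.34 CPM in the control libraries, and those of endothelial cells at 8.14 to 9.29 CPM in the libraries labelled SEPHS2 knockout and 9.69 to 10.3 CPM in the control libraries. Fibroblast markers summed to 48.3 to 54.6 CPM in the libraries labelled SEPHS2 knockout and 73.2 to 74.9 CPM in the control libraries, and keratinocyte markers to 42.6 to 46.0 CPM in the libraries labelled SEPHS2 knockout and 35.2 to 35.7 CPM in the control libraries. Of these lists CD3D, CD3E, CD2, TYROBP, THY1, KRT5 and KRT1 have no row among the 21631 symbols, so the sums leave them out. No other marker was at 0 in all 6 libraries. PTPRC, found on all leukocytes, averaged 0.00822 ± 0.0142 CPM in the libraries labelled SEPHS2 knockout and 0.132 ± 0.153 CPM in the control libraries, and the macrophage gene CD68 0.0247 ± 0.0427 CPM in the libraries labelled SEPHS2 knockout and 0.0479 ± 0.0415 CPM in the control libraries. LYZ, a lysozyme gene of the macrophage list, was higher, at 6.70 ± 0.331 CPM in the libraries labelled SEPHS2 knockout and 3.28 ± 0.349 CPM in the control libraries (edgeR, log2 fold change 1.03 ± 0.12 SE, adjusted p = 8.20e-07). CD8A of the T or NK list was also called higher, at 1.05 ± 0.154 CPM in the libraries labelled SEPHS2 knockout and 0.568 ± 0.166 CPM in the control libraries (edgeR, log2 fold change 0.89 ± 0.32 SE, adjusted p = 0.0288). Called higher were 1 of 2 tested T or NK markers, 1 of 4 macrophage, 1 of 6 fibroblast and 2 of 2 keratinocyte markers. Called lower were 1 of 4 endothelial, 3 of 6 fibroblast and 4 of 8 tested melanoma markers. No melanoma marker was called higher. SOX10, MITF, NES and PRAME were the melanoma markers called lower, with log2 fold changes of -0.12, -0.35, -0.81 and -0.12. The part of these markers in the results below was not tested.

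Of the 10 genes, 9 fell in the libraries labelled SEPHS2 knockout and 1, NFKB1, did not pass the test. Among all 16910 genes tested, 23.4% were called lower and 45.4% were called in either direction (edgeR quasi-likelihood test, two-sided, Benjamini-Hochberg adjusted p under 0.05). The falls reached at least 2-fold for 7 of the 10 genes, against 5.67% of all genes tested. Of the 9956 genes averaging at least 10 CPM, 24.8% were called lower and 1.07% were lower by at least 2-fold. NFKBIA and SOD2 lie at that boundary, and 5 to 7 genes were past it with 1 library left out, with 5 past it without control replicate 2. The median log2 fold change (libraries labelled SEPHS2 knockout over control) was -1.03 over the 10 genes and 0.01 over all genes tested. All 10 passed the filter on low counts with at least 166 reads in every library, so none was tested only because of its level in one group. The CPM groups do not overlap for 9 of the 10 genes, against 52.1% of all genes tested, and 25.6% of all genes were lower under the knockout label without overlap. A fall in bulk RNA can come from fewer cells that express a gene or from less RNA per cell, which cannot be told apart here.

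**Figure D1:**
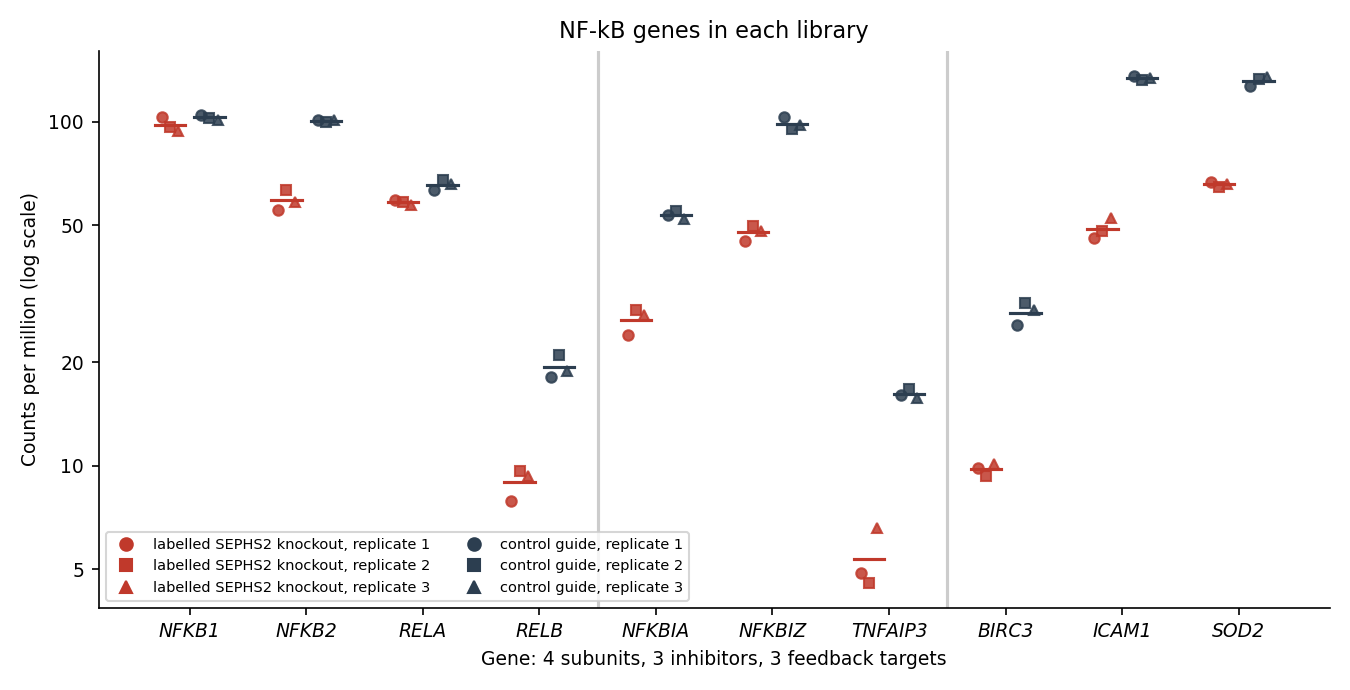
CPM on a log axis for each of the 10 genes, with 1 point per library, the 3 libraries labelled SEPHS2 knockout in red on the left of each gene and the 3 control libraries in dark blue on the right, and a bar at each group mean. The groups overlap for NFKB1 and stand apart for the other 9 genes, as they do for 52.1% of all genes tested.

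The promoters were then read for letters that these genes share. NF-kB pairs bind kB sites. Of the 10 genes, 9 have a promoter window in the RefSeq table for GRCh38.p14, and RELB has none, so RELB was not searched. There are 17 windows in all, each running from 250 bases before an annotated start to 50 after it. Both strands were searched for the 10-letter kB consensus and for a 9-letter palindromic core, GGAANTTCC, which can lie inside a consensus match and was chosen after the windows had been read. The consensus is in at least 1 window of 6 of the 9 genes, against 7.09% of the 27305 genes in the table. The 9 genes were taken by name as NF-kB genes and have 17 windows, while the 27305 genes have 35116. The shares are therefore not on an equal footing, and their difference was not tested. The core is in 4 of the 9 and in 1.16% of the genes in the table, but it was picked from these windows, so the difference carries no weight. In NFKB1, NFKBIA and NFKBIZ it lies inside a consensus match. These genes have up to 4 windows each, and a match is a run of letters, not a site shown to be bound. The whole windows of NFKBIA and ICAM1, which fell, and of the first start of NFKB1, which did not pass, are given 5′ to 3′ on the strand of the gene, with matches in capitals.
NFKBIA promoter, chr14:35404700-35404999, - strand: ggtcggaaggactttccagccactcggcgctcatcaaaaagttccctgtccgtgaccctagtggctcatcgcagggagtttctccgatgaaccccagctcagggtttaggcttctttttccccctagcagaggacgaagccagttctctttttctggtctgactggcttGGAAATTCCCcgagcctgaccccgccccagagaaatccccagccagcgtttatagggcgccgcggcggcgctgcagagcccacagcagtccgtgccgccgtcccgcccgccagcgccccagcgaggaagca
ICAM1 promoter, chr19:10270870-10271169, + strand: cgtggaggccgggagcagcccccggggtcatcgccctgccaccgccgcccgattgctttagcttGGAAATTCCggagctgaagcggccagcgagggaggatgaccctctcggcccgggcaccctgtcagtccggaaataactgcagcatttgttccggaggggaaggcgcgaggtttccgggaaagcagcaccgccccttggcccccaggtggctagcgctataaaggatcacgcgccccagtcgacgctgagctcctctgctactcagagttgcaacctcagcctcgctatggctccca
NFKB1 promoter, chr4:102501109-102501408, + strand: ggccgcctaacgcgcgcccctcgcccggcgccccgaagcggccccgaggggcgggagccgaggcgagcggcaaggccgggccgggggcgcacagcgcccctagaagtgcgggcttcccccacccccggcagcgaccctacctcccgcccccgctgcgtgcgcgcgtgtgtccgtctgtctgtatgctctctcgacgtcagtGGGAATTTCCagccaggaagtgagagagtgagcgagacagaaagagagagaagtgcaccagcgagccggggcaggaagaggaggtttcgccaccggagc

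The matches in the other genes that fell are given with their flanks, each line with only its own match in capitals. The TNFAIP3 lines overlap, and the matches of TNFAIP3 and BIRC3 are on the opposite strand. NFKB2 has matches at 2 places before its start 2 and at 2 before its start 3, of which the one nearest each start is shown, and NFKBIZ has a further match before its start 2.
NFKBIZ, chr3:101827757-101827786, + strand: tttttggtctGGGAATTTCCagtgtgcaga
NFKB2, chr10:102394490-102394519, + strand: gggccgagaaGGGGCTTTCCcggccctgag
NFKB2, chr10:102395674-102395703, + strand: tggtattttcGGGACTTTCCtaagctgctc
TNFAIP3, chr6:137867182-137867211, + strand: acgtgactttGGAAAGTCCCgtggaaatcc
TNFAIP3, chr6:137867194-137867223, + strand: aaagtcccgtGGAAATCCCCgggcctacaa
BIRC3, chr11:102317275-102317304, + strand: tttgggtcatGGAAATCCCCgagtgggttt
BIRC3, chr11:102317339-102317368, + strand: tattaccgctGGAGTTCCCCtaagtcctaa

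The same 10 letters, GGGAATTTCC, are in the windows of NFKB1, NFKBIZ and NFKBIA, on the opposite strand in NFKBIA. NFKBIA and NFKBIZ fell, with log2 fold changes of -1.01 and -1.05, and NFKB1, with -0.07, did not pass. The letters GGGGATTTCC are on the opposite strand in both TNFAIP3 and BIRC3, which had the lowest log2 fold changes of the 10. The letters GGGACTTTCC are in NFKB2, before its start 3, and on the opposite strand in TNFAIP3, with log2 fold changes of -0.77 and -1.60. A relation between shared letters and the size of a fall was not tested. RELA and SOD2 have no match in any window, and both fell. The windows are short, and no match says only that these letters are not in them.

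**Figure D2:**
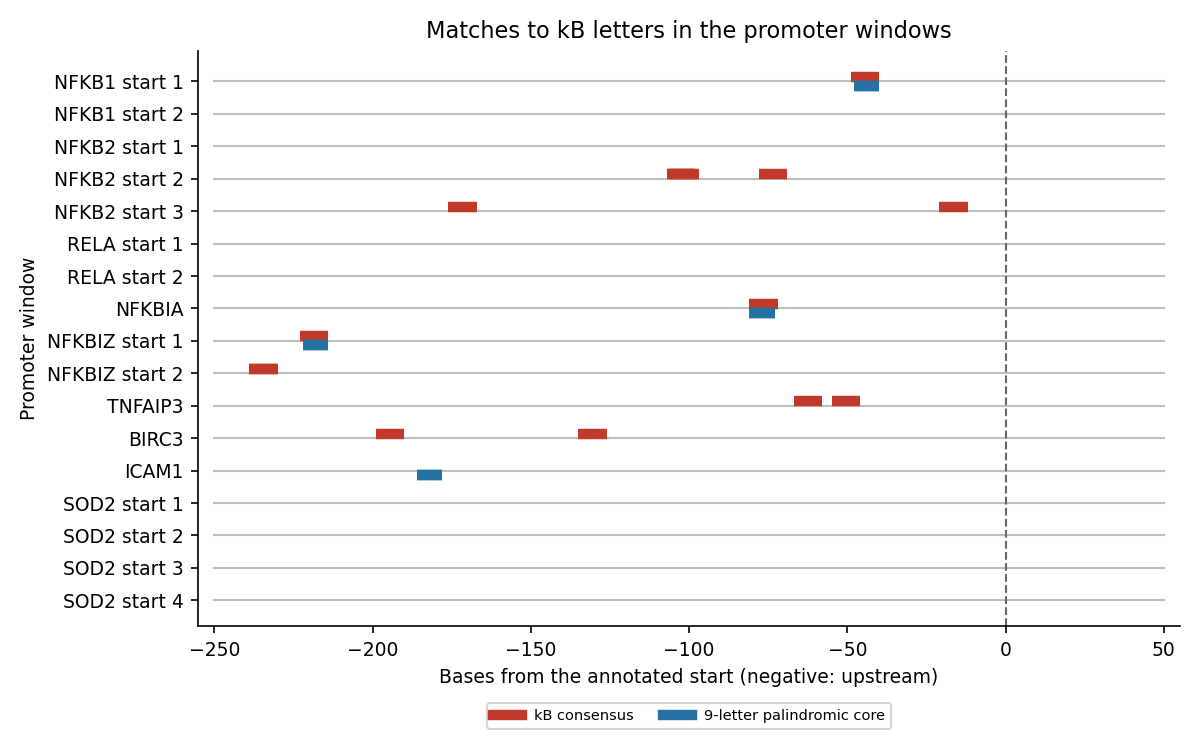
Positions of the kB consensus (red) and of the palindromic core (blue) in the 17 promoter windows of 9 genes, in bases from the annotated start. NFKB1 start 1, NFKBIA and NFKBIZ start 1 hold both, ICAM1 holds the core alone, and the windows of RELA and SOD2 hold neither.

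CPM values are on TMM-scaled library sizes, and positions are those of RefSeq on GRCh38.p14. All 10 genes are protein-coding.

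Among the subunits, the genes of the canonical pair differed little and those of the non-canonical pair differed most. NFKB1 (chromosome 4, 102501359 to 102617302), which encodes the precursor of a DNA-binding subunit that lacks an activation domain, had 103, 96.3 and 93.6 CPM in the libraries labelled SEPHS2 knockout, against 105, 103 and 101 CPM in the control libraries. The highest of the first group lies within the range of the second, so the groups overlap. Its mean was 97.7 ± 5.02 CPM in the libraries labelled SEPHS2 knockout and 103 ± 1.75 CPM in the control libraries (SD, n = 3 per group; edgeR, log2 fold change -0.07 ± 0.05 SE, adjusted p = 0.193). Without the replicate 1 labelled SEPHS2 knockout, NFKB1 had a log2 fold change of -0.11 and passed (edgeR adjusted p = 0.034).

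RELA (chromosome 11, 65653601 to 65663857), the subunit with the main activation domain of the canonical pair, had 59.3, 58.3 and 57.0 CPM in the libraries labelled SEPHS2 knockout, against 63.2, 67.6 and 65.9 CPM in the control libraries. The libraries labelled SEPHS2 knockout all lie below the control libraries, by a small margin. RELA fell (edgeR, log2 fold change -0.17 ± 0.05 SE, adjusted p = 0.00443), and its log2 fold change stayed between -0.20 and -0.15 under every alternative run.

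NFKB2 (chromosome 10, 102394110 to 102402529), the precursor of the non-canonical DNA-binding subunit, had 55.5, 63.3 and 58.2 CPM in the libraries labelled SEPHS2 knockout, against 101, 99.8 and 101 CPM in the control libraries. The control libraries were within 2 CPM of each other, and the groups are far apart. NFKB2 fell (edgeR, log2 fold change -0.77 ± 0.05 SE, adjusted p = 4.33e-11). RELB (chromosome 19, 45001464 to 45038192), its activating partner, had 7.88, 9.66 and 9.35 CPM in the libraries labelled SEPHS2 knockout, against 18.1, 21.0 and 18.9 CPM in the control libraries. Replicate 1 of the libraries labelled SEPHS2 knockout was the lowest of the 6 for both genes. RELB fell (edgeR, log2 fold change -1.10 ± 0.09 SE, adjusted p = 1.25e-09).

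The inhibitors all fell. NFKBIA (chromosome 14, 35401513 to 35404749) encodes IkB alpha, which binds the RELA pair and is resynthesised after each signal. It had 23.9, 28.4 and 27.3 CPM in the libraries labelled SEPHS2 knockout, against 53.5, 54.998 and 52.2 CPM in the control libraries. The 3 libraries labelled SEPHS2 knockout are all far below the lowest control library (edgeR, log2 fold change -1.01 ± 0.06 SE, adjusted p = 1.23e-11). NFKBIZ (chromosome 3, 101827990 to 101861022) encodes a nuclear IkB protein that can restrain NF-kB and is also needed for the induction of some targets. It had 45.1, 49.7 and 48.0 CPM in the libraries labelled SEPHS2 knockout, against 103, 95.2 and 97.8 CPM in the control libraries, and the groups do not overlap (edgeR, log2 fold change -1.05 ± 0.05 SE, adjusted p = 3.21e-13).

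TNFAIP3 (chromosome 6, 137866349 to 137883312) encodes a ubiquitin-editing enzyme that shuts down signalling from the tumor necrosis factor receptor. It had 4.86, 4.57 and 6.59 CPM in the libraries labelled SEPHS2 knockout, against 16.0, 16.7 and 15.7 CPM in the control libraries. Of the 10 genes it showed the lowest log2 fold change, and the widest spread relative to its mean within the libraries labelled SEPHS2 knockout, where replicate 3 stood above the other 2 (edgeR, log2 fold change -1.60 ± 0.11 SE, adjusted p = 1.40e-10). With 1 library left out its log2 fold change ranged from -1.78 to -1.49.

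The 3 targets fell as well. BIRC3 (chromosome 11, 102317484 to 102339403) encodes a ubiquitin ligase that keeps tumor necrosis factor signalling on the survival side. It had 9.81, 9.33 and 10.1 CPM in the libraries labelled SEPHS2 knockout, against 25.6, 29.6 and 28.3 CPM in the control libraries, with all libraries labelled SEPHS2 knockout below the lowest control library (edgeR, log2 fold change -1.51 ± 0.07 SE, adjusted p = 4.39e-13). Its neighbor and paralog BIRC2, which does much of the same work, fell too, with 116 ± 2.69 CPM in the libraries labelled SEPHS2 knockout and 139.5 ± 3.95 CPM in the control libraries (edgeR, log2 fold change -0.26 ± 0.04 SE, adjusted p = 2.57e-05).

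ICAM1 (chromosome 19, 10271120 to 10286615), a surface adhesion molecule that binds leukocyte integrins, had 45.9, 47.9 and 52.3 CPM in the libraries labelled SEPHS2 knockout, against 136, 132 and 134 CPM in the control libraries. The 3 control libraries lie close together, and the other 3 libraries are all far below them (edgeR, log2 fold change -1.46 ± 0.05 SE, adjusted p = 2.49e-15). The antisense RNA gene AC011511.5 overlaps 22.0% of its exon length, and the strand setting of the counting is not given in the sources used here, so reads from it cannot be told apart from ICAM1 reads.

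SOD2 (chromosome 6, 159669069 to 159762281), the superoxide dismutase of mitochondria, had 66.7, 64.4 and 65.7 CPM in the libraries labelled SEPHS2 knockout, against 127, 133 and 134 CPM in the control libraries. Within each group the libraries differ little, and the groups do not overlap (edgeR, log2 fold change -1.001 ± 0.04 SE, adjusted p = 1.07e-13). SOD2 exons overlap those of ACAT2 over 6.27% and of WTAP over 2.40% of their length, both on the opposite strand. On the same strand they overlap those of SOD2-OT1, a long noncoding RNA gene, over 5.16%. A processed pseudogene exists on chromosome 1. ACAT2 had a mean of 52.6 CPM in the libraries labelled SEPHS2 knockout and 30.1 CPM in the control libraries (log2 fold change 0.80, edgeR adjusted p = 2.74e-11). WTAP had 2529, 3387 and 3126 reads in the libraries labelled SEPHS2 knockout and 3098, 2949 and 2632 in the control libraries. The part of overlapping genes in the SOD2 counts was not tested.

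**Figure D3:**
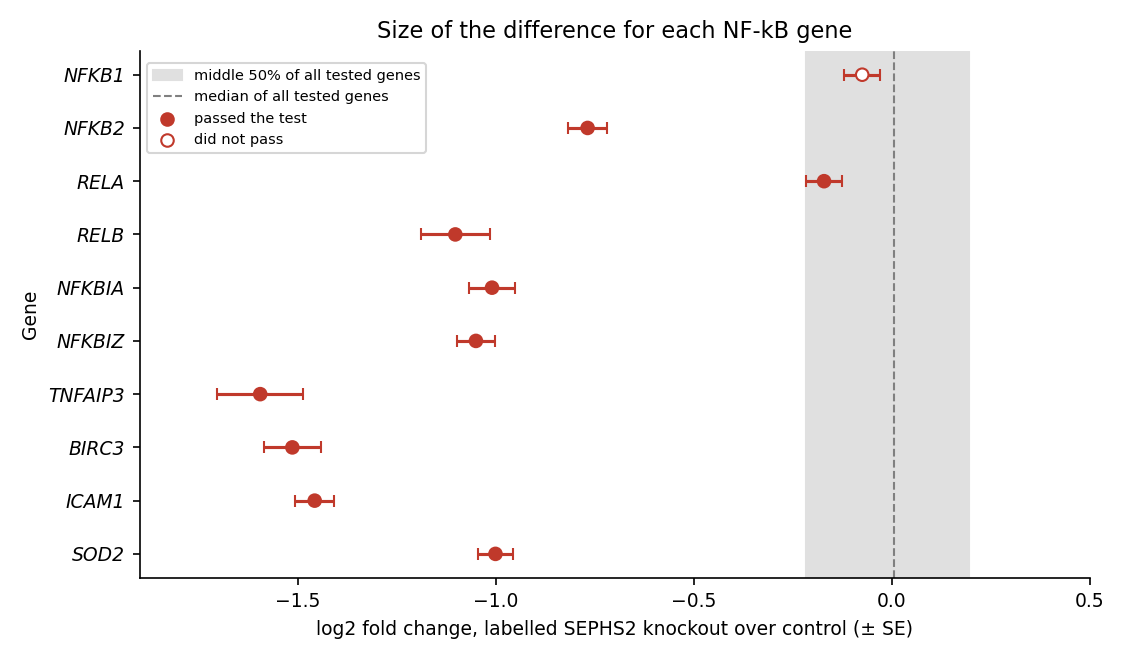
The log2 fold change (libraries labelled SEPHS2 knockout over control) of each of the 10 genes with its standard error, beside the median and the middle 50% of all 16910 genes tested. NFKB1 and RELA lie inside that band and the other 8 genes lie below it.

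Counts of 2 genes from the same library can be divided without any scaling between libraries. There were 1.74, 1.65 and 1.64 NFKB1 reads per RELA read in the libraries labelled SEPHS2 knockout, against 1.66, 1.52 and 1.54 in the control libraries, and the groups overlap. RELB reads per RELA read were 0.133, 0.166 and 0.164 in the libraries labelled SEPHS2 knockout, against 0.286, 0.311 and 0.287 in the control libraries. NFKB2 reads per NFKB1 read were 0.537, 0.657 and 0.622 in the libraries labelled SEPHS2 knockout, against 0.963, 0.972 and 1.00 in the control libraries. In both cases the 3 libraries labelled SEPHS2 knockout lie below the control libraries. NFKBIA reads per RELA read, the inhibitor against the subunit it holds, were 0.403, 0.486 and 0.479 in the libraries labelled SEPHS2 knockout, against 0.846, 0.813 and 0.793 in the control libraries.

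ICAM1 reads per RELA read were 0.773, 0.822 and 0.917 in the libraries labelled SEPHS2 knockout, against 2.15, 1.95 and 2.04 in the control libraries. TNFAIP3 reads per RELA read were 0.0819, 0.0784 and 0.116 in the libraries labelled SEPHS2 knockout, against 0.253, 0.247 and 0.239 in the control libraries. The 11 ratios computed are the 9 to RELA, NFKB2 to NFKB1 and NFKBIA to NFKBIB. They share genes, so they are not independent of each other or of the calls above. For single genes in CPM, the groups do not overlap for 52.1% of all genes tested, and no such share was computed for ratios. Of the 11 ratios, 10 had groups that do not overlap. Each of these 10 had a two-sided exact permutation p = 0.1, the smallest that 3 libraries against 3 allow (adjusted p = 0.11), so this test cannot pass the threshold, and NFKB1 to RELA had exact permutation p = 0.3. NFKBIB, which encodes a second classical IkB protein and was chosen for this ratio after its values were seen, had 16.4 ± 1.05 CPM in the libraries labelled SEPHS2 knockout and 16.9 ± 0.343 CPM in the control libraries (edgeR, log2 fold change -0.04 ± 0.07 SE, adjusted p = 0.647), and NFKBIA reads per NFKBIB read were 1.49, 1.62 and 1.76 in the libraries labelled SEPHS2 knockout, against 3.17, 3.19 and 3.15 in the control libraries.

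**Figure D4:**
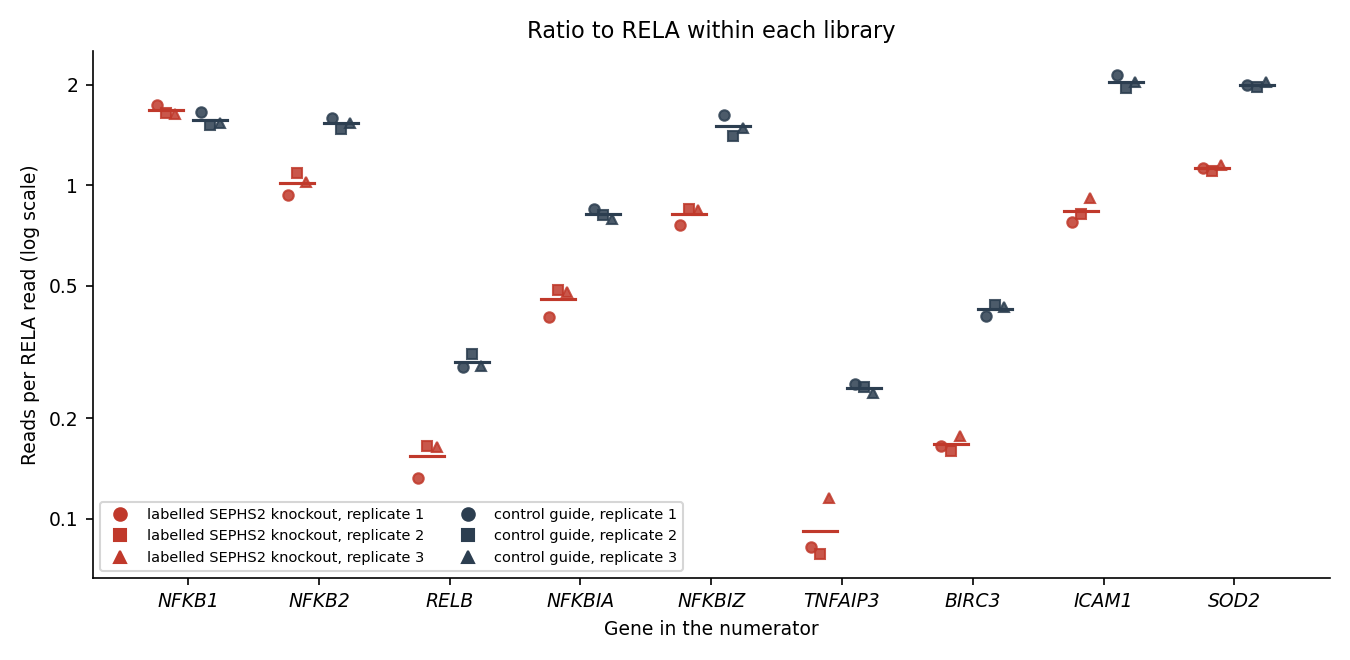
Reads of each gene divided by RELA reads in the same library, on a log axis, with the 3 libraries labelled SEPHS2 knockout in red on the left of each gene, the 3 control libraries in dark blue on the right, and a bar at each group mean. The groups overlap only for NFKB1 among these 9 ratios, which share RELA as denominator. For single genes in CPM, the groups do not overlap for 52.1% of all genes tested.

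The levels of different genes can be compared only per length, here as CPM per kilobase of annotated exon (GENCODE release 29). In the libraries labelled SEPHS2 knockout NFKB1 had the highest level per length, at 15.6 ± 0.803 CPM per kilobase (SD, n = 3), followed by NFKB2 at 13.2 ± 0.881 and ICAM1 at 13.1 ± 0.884, whose ranges overlap. In the control libraries ICAM1 was highest, at 36.1 ± 0.467 CPM per kilobase, followed by NFKBIA at 22.6 ± 0.589 and NFKB2 at 22.4 ± 0.155, which again overlap, while NFKB1 lay lower, at 16.4 ± 0.279. NFKBIA and RELA also overlap in the libraries labelled SEPHS2 knockout, at 11.2 ± 0.986 and 10.7 ± 0.213 CPM per kilobase, whereas in the control libraries NFKBIA stood clearly above RELA, at 22.6 ± 0.589 and 11.997 ± 0.408. TNFAIP3 had the lowest mean in both groups, at 1.06 ± 0.216 CPM per kilobase in the libraries labelled SEPHS2 knockout and 3.20 ± 0.102 in the control libraries. In the libraries labelled SEPHS2 knockout its range overlaps that of BIRC3, at 1.30 ± 0.0510. SOD2 has 18.2 kilobases of annotated exon, the most of the 10, which lowers its value per length wherever long forms are little used.

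The rest of the pathway was read from 7 lists that hold none of the 10 genes. Of their 107 tested genes, 51 fell and 12 rose, against 23.4% called lower and 22.0% called higher of all genes tested. Of the 7 lists, ligands and other targets had the lowest medians, followed by the other subunit and IkB genes at -0.26. Receptors, adaptors and kinases had medians nearer that of all genes, and ubiquitin enzymes and negative regulators, at 0.01, the nearest. Of the 107 genes, 102 passed the filter on low counts through both groups, and 47 of these fell and 12 rose. No test of the difference between lists was made.

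Of 8 tested ligands that activate the pathway, 6 fell and none rose, with a median log2 fold change of -1.13. IL1B, the secreted form of interleukin-1, had 2.40, 2.41 and 3.26 CPM in the libraries labelled SEPHS2 knockout, against 8.45, 7.56 and 8.24 CPM in the control libraries (edgeR, log2 fold change -1.58 ± 0.13 SE, adjusted p = 3.93e-09). IL1A, its membrane and nuclear relative, had 6.77 ± 0.657 against 14.1 ± 1.61 CPM (edgeR, log2 fold change -1.05 ± 0.10 SE, adjusted p = 2.61e-08), with the libraries labelled SEPHS2 knockout given before the control libraries here and in the paragraphs on the other lists. IL18 had 2.38 ± 0.162 against 4.91 ± 0.477 CPM and a log2 fold change of -1.04, and TNFSF14 0.590 ± 0.161 against 1.79 ± 0.243 CPM and -1.57. Several ligands are near the limit of detection. When at least 1 CPM was required in 3 libraries, 4 ligands fell. TNFSF14 passed that stricter filter only through the control libraries, where it is higher, so its call there carries little weight. TNF itself, named after its values were seen, is 1 of the 6 and had 0.1997 ± 0.0903 against 0.842 ± 0.146 CPM. It passed the filter on low counts only through the control libraries, where it is higher, so its call carries little weight. The 7 ligands that passed through both groups gave 5 that fell and a median of -1.05.

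Of 28 other tested target genes, 20 fell and 2 rose, with a median log2 fold change of -0.63. BCL2 and BCL2L1, which encode inhibitors of cell death, were the 2 that rose (log2 fold changes 0.40 and 0.22), and only BCL2 did so without control replicate 1, where BCL2L1 had edgeR adjusted p = 0.0571. CCL2, VCAM1 and BCL2A1 passed the filter on low counts only through the control libraries, where they are higher, and IL6 through no group alone. The 24 targets that passed through both groups gave 17 that fell, 2 that rose and a median of -0.60. The chemokine gene CXCL8 fell, with a log2 fold change of -1.48. CCL2, another chemokine gene, had 6, 4 and 6 reads in the libraries labelled SEPHS2 knockout and 357, 389 and 405 in the control libraries. C3, the central complement component, had 19.7, 27.1 and 28.6 CPM in the libraries labelled SEPHS2 knockout, against 106, 106 and 93.8 CPM in the control libraries (edgeR, log2 fold change -2.01 ± 0.09 SE, adjusted p = 8.23e-14). TRAF1, an adaptor that is itself an NF-kB target, had 6.18, 7.17 and 8.54 CPM in the libraries labelled SEPHS2 knockout, against 26.3, 30.6 and 29.3 CPM in the control libraries (edgeR, log2 fold change -1.97 ± 0.09 SE, adjusted p = 2.45e-13). For both, replicate 1 labelled SEPHS2 knockout was the lowest library and the groups do not overlap.

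Of 6 other subunit and IkB genes, 3 fell and none rose, with a median log2 fold change of -0.26. BCL3, a nuclear IkB protein that works with the NFKB1 and NFKB2 products, had 19.8 ± 1.46 against 27.6 ± 0.790 CPM (edgeR, log2 fold change -0.47 ± 0.06 SE, adjusted p = 2.75e-06). REL, the remaining subunit, had 12.002 ± 0.708 against 16.3 ± 1.202 CPM (edgeR, log2 fold change -0.44 ± 0.08 SE, adjusted p = 0.000103), and NFKBIE, a further IkB gene, 6.93 ± 1.33 against 9.77 ± 0.309 CPM (edgeR, log2 fold change -0.49 ± 0.11 SE, adjusted p = 0.00145). These falls are smaller than those of RELB, NFKBIA and NFKBIZ.

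Of 16 kinases and kinase partners, 5 fell and 3 rose, with a median log2 fold change of -0.11. IRAK2, a kinase of interleukin-1 and Toll-like receptor signalling, had 5.39, 6.18 and 6.02 CPM in the libraries labelled SEPHS2 knockout, against 14.7, 15.8 and 15.1 CPM in the control libraries (edgeR, log2 fold change -1.37 ± 0.09 SE, adjusted p = 6.74e-11). Its relative IRAK1 went the other way, with 308 ± 22.0 against 231 ± 13.8 CPM (edgeR, log2 fold change 0.41 ± 0.05 SE, adjusted p = 1.23e-06). RIPK2 had a log2 fold change of -0.37 and TAB3 of -0.26, and both fell. The 3 genes of the IKK kinase complex, named after their values were seen, had log2 fold changes of 0.13 for CHUK, -0.09 for IKBKB and -0.12 for IKBKG, whose reads are uncertain because a near-identical pseudogene copy exists. Of these only CHUK passed (edgeR adjusted p = 0.0295), and it did not pass without replicate 1 or 2 labelled SEPHS2 knockout or control replicate 1 or 3 (edgeR adjusted p = 0.0692 to 0.122), or in DESeq2 (adjusted p = 0.0511).

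Of 13 adaptors, 6 fell and 1 rose, with a median log2 fold change of -0.12. TRAF3, which holds the non-canonical pathway in check, had 37.7 ± 0.762 against 50.4 ± 3.17 CPM (edgeR, log2 fold change -0.42 ± 0.05 SE, adjusted p = 1.73e-06). TICAM1, the adaptor of Toll-like receptor 3, had a log2 fold change of -0.38. CARD10, a scaffold that links membrane signals to IKK, was the 1 that rose (17.05 ± 0.747 against 10.5 ± 0.484 CPM; edgeR, log2 fold change 0.69 ± 0.08 SE, adjusted p = 1.79e-07).

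Of 17 tested ubiquitin enzymes and other negative regulators, 6 fell and 3 rose, with a median log2 fold change of 0.01. ZC3H12A, an RNase that degrades inflammatory mRNAs, had 5.08 ± 0.708 against 8.40 ± 0.698 CPM (edgeR, log2 fold change -0.72 ± 0.12 SE, adjusted p = 4.03e-05). CYLD, a deubiquitinase, and TNIP1, a partner of the TNFAIP3 product, fell, with log2 fold changes of -0.39 and -0.30. RBCK1, a subunit of the linear ubiquitin ligase, rose by 0.21 on the log2 scale. Of 19 tested receptors, 5 fell and 3 rose, with a median of -0.07. TNFRSF1A, the main receptor for tumor necrosis factor, had 185 ± 7.63 against 217 ± 2.13 CPM (edgeR, log2 fold change -0.24 ± 0.04 SE, adjusted p = 8.81e-05), and IL1RAP, the shared chain of interleukin-1 family receptors, 49.3 ± 6.75 against 66.3 ± 3.19 CPM (edgeR, log2 fold change -0.43 ± 0.07 SE, adjusted p = 2.99e-05). TNFRSF10B had a log2 fold change of -0.22, and FAS rose, with 0.38.

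**Figure D5:**
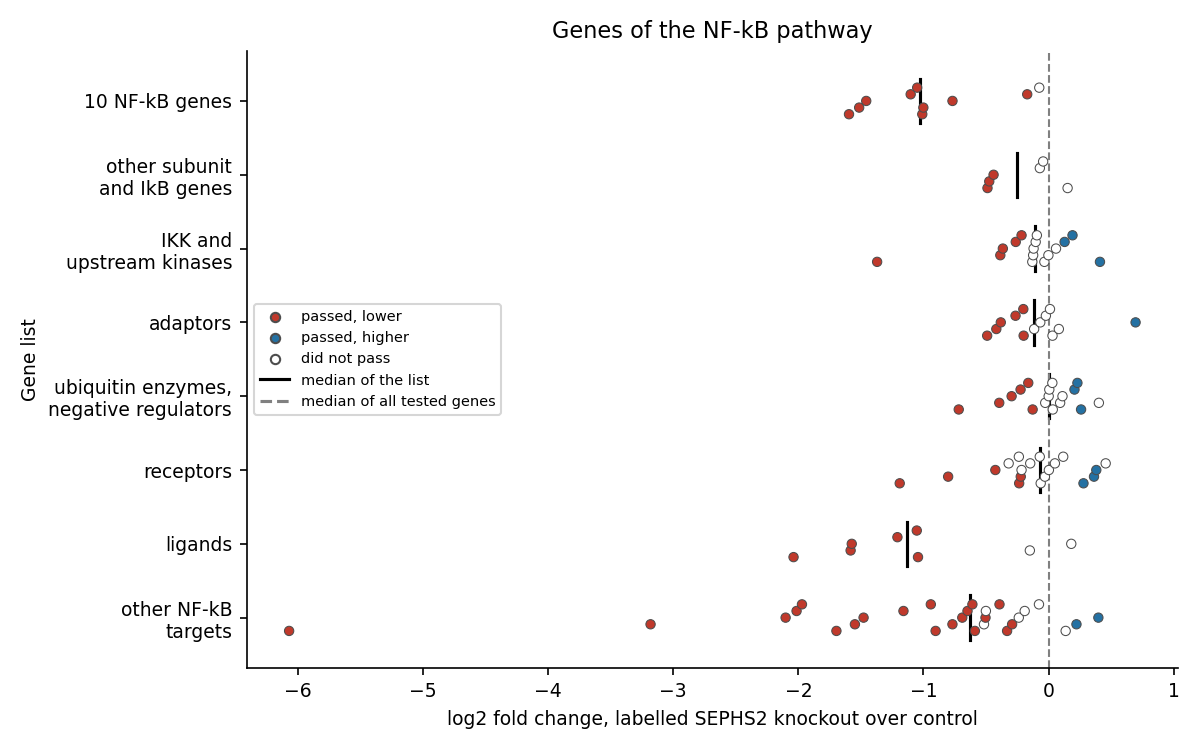
The log2 fold change (libraries labelled SEPHS2 knockout over control) of each tested gene in the 7 pathway lists, with the 10 NF-kB genes on top; red genes were called lower, blue ones higher, open ones did not pass, and a bar marks the median of each list. Of the 7 lists, the ligands and the other targets spread furthest below the dashed median of all genes tested. Among their points, TNF, CCL2, VCAM1 and BCL2A1 passed the filter on low counts only through the control libraries, where they are higher.

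Outside all lists, 9871 genes averaging at least 10 CPM were searched for the pattern over the 6 libraries most like that of ICAM1 or NFKBIA. Likeness was the root mean square difference in centred log2 CPM, in which the difference between the groups counts most. For ICAM1 the nearest were TMEM158 at 0.0346, PDE4B at 0.0424 and EDNRB at 0.0436, with log2 fold changes of -1.40, -1.54 and -1.41. For NFKBIA they were PDE4A at 0.0376, CKB at 0.0404 and JUNB at 0.0436, with log2 fold changes of -1.01, -0.97 and -0.95.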

How the data were processed

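Reads had been counted by the authors, who deposited the unnormalized counts of each symbol in 1 table. The tools are HISAT2 2.2.1, featureCounts 2.0.6 (Subread), SAMtools 1.21 and FastQC 0.12.1 with GRCh38, per the submitters' processing notes. For the annotation, the strand setting and multi-mapping reads, the sources used here give nothing. None of the 10 genes had counts identical to another symbol.

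Groups and replicate numbers came from the sample titles. All 21631 symbols entered R 4.3.3 and edgeR 4.0.16 (TMM factors, default expression filter with the group, quasi-likelihood test), which tested 16910 genes, with Benjamini-Hochberg adjustment over all of them and a threshold of 0.05. Fold changes are libraries labelled SEPHS2 knockout over control, and CPM values are given per library or as mean ± SD of 3. Exon lengths are the union of GENCODE release 29 exons, both entries of SOD2 merged.

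The members, the lists and the rule for named genes were chosen with earlier results of these data known. That rule took the 10 genes, SEPHS2, up to 4 called genes with the smallest adjusted p per list, and the 3 nearest patterns to ICAM1 and NFKBIA. Alternatives were DESeq2 1.42.0, limma-voom (limma 3.58.1), upper-quartile or RLE factors, testing every gene, testing those with 1 CPM in 3 libraries, the replicate number as a block, each library left out in turn, and a threshold of 0.01.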

Additional observations from a re-analysis of the deposited data

How the results depend on the processing

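Under the 14 alternatives run, no call on the 10 genes was lost and no direction changed. The number called lower was 9 to 10, with NFKB1 the tenth without replicate 1 labelled SEPHS2 knockout, and none was called higher. The number lower by at least 2-fold was 5 to 7. Over the pathway lists 49 to 53 genes were called lower and 9 to 13 higher, and over all genes 3110 to 4064 lower and 2753 to 3777 higher. SEPHS2 kept a log2 fold change of 0.14 to 0.17. With 1 library left out IKBKG, not called, had log2 fold changes of -0.27 to 0.0032, the last without control replicate 3, and the cause was not tested. With the replicate block, all genes gave 3997 lower and 3777 higher calls, and 9 of the 10 genes were called lower. The block changed no call on these genes. The numbers are not shown to pair the samples, because deviations of same-numbered libraries correlated at 0.0915, 0.00749 and 0.117 over 14043 genes, and not every library correlated best with its own number. TNF and the other ligands and targets under 1 CPM rest on few reads, while each of the 10 genes had at least 166 reads in every library. The part of depth in these results was not tested.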
